A study of Mus musculus with 9 samples.

Results

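The transcripts described here are 5 long noncoding RNAs, Malat1, Neat1, Meg3, H19 and Snhg1, and the ribosomal RNA precursor Rn45s. They were taken by their symbols from a table of read counts of mouse hearts, in which they are 6 of 23457 rows. Poly(A) RNA was sequenced from 4 hearts of adult C57BL/6J mice labelled as germline Parkin knockouts (KO) and from 5 hearts of adult wild-type (WT) mice of the same strain. Parkin is a ubiquitin ligase of mitochondrial quality control. The study was mainly one of Drosophila hearts, with the mice added, and the genotypes are compared here for differences in cardiac RNA. The labels name the tissue as the entire heart, while the protocol gives frozen ventricular apices. Because the deletion is in the germline, every cell type of the heart carries it, and the labels name no promoter, Cre driver or pooling of animals.

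Long noncoding RNAs act as RNA. Malat1 is retained in nuclear speckles, and Neat1 is the scaffold around which paraspeckles form. Meg3 and H19 are made from the maternal copy of 2 imprinted loci and are abundant in the fetus. Snhg1 is a host gene, whose introns carry small nucleolar RNAs (snoRNAs) and whose spliced transcript is quickly degraded. Rn45s is the long precursor made by RNA polymerase I and cut into ribosomal RNAs, and it has no poly(A) tail.

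Shares are given of nuclear reads, which are the reads of all rows other than the 37 rows of mitochondrially encoded genes. Nuclear reads came to between 9844456 and 14088622 in KO hearts and between 1845431 and 14033010 in WT hearts. WT hearts 2 and 3 were the shallowest, with 1845431 and 2053521. Mitochondrial reads took 10.04, 15.1, 12.7 and 15.4% of assigned reads in KO hearts 1 to 4, against 32.6, 58.2, 55.9, 37.8 and 50.7% in WT hearts 1 to 5. The groups did not overlap, so genotype and mitochondrial share cannot be told apart. The cardiomyocyte gene Myh6 and the ventricular light chain gene Myl2 were abundant, at no less than 26925 and 5462 CPM in any heart. The atrial markers Sln and Myl7, the lowest of 4 listed, stayed at or below 1.01 CPM. The sum of the 4 ran from 134 to 478 CPM in KO hearts and from 23.7 to 43.4 CPM in WT hearts. CPM is the count per 1000000 reads after TMM scaling, and RPM below is the count per 1000000 nuclear reads of the same heart. The atrial and ventricular stress peptide Nppa was called higher in KO hearts (log2 fold change 2.93 ± 0.30, edgeR adjusted p = 7.98e-06). In bulk tissue, fewer cells of a type and less RNA per cell cannot be told apart. Nothing in the labels says how litters or dissection days were spread over the hearts.

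The 3' ends of these RNAs are shown because capture on oligo(dT) depends on what stands there. Capitals mark the polyadenylation hexamer AATAAA, searched on the transcript's own strand, which 27.2% of the 141515 GENCODE vM21 transcripts hold in their last 60 bases. Of the annotated transcripts, it stands there in 1 of 4 for Neat1, 3 of 4 for Malat1 and 4 of 11 for Meg3. For H19 it does so in 4 of 7 and for Snhg1 in 11 of 18. The 5 transcripts printed were picked by name and all hold it, so they do not stand for the other isoforms. Their last 60 bases on GRCm38 are as follows.

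Neat1-202 (chromosome 19, minus strand): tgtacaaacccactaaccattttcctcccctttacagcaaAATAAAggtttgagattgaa
Malat1-201 (chromosome 19, minus strand): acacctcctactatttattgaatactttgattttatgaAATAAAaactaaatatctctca
Meg3-207 (chromosome 12, plus strand): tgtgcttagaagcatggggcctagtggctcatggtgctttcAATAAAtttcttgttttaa
H19-202 (chromosome 7, minus strand): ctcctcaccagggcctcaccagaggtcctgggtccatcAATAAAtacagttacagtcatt
Snhg1-211 (chromosome 19, plus strand): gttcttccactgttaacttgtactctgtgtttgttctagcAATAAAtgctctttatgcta

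The long Neat1 isoform and mature Malat1 are known to end without a poly(A) tail, in an A-rich stretch that folds into a triple helix. Both hold AAAAAGCAAAA, which capitals mark below and which 0.0382% of the transcripts hold in their last 60 bases. That share does not cover Malat1-201, where the letters lie outside those bases. Neat1-201 ends in it at base 20771, and in Malat1-201 it lies upstream of the annotated end, closing bases 6632 to 6691 of 6983. Upstream of it the 2 windows also share a run of 16 identical bases, which both hold in the same letters.

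Neat1-201 (chromosome 19, minus strand): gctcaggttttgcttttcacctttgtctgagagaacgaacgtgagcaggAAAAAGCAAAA
Malat1-201 (chromosome 19, minus strand): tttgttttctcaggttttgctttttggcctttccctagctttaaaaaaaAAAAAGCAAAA

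The longest run of A was 12 bases in Malat1, inside the window printed above and reaching into its marked letters, 16 in Meg3 and 7 in Neat1. Rn45s had no entry in the reference used here.

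Among the RNAs described, Neat1 was higher and Snhg1 lower in KO hearts, and Malat1, Meg3, H19 and Rn45s did not pass the test. Thus 2 of 6 passed by edgeR, against 51.4% of the 12640 genes tested (6503 genes), so these RNAs were called no more often than genes at large. Of the 2, Snhg1 entered the test only through the WT hearts, where it is higher. In 26.2% of tested genes the call was higher in KO hearts and in 25.2% lower. The groups did not overlap for 2 of 6, against 41.6% of all tested genes. The 6 together took 5.37, 4.93, 5.73 and 5.99% of nuclear reads in KO hearts 1 to 4, against 5.84, 3.38, 2.64, 4.80 and 5.05% in WT hearts 1 to 5. Rn45s made up most of this, and the other 5 summed to 0.558% ± 0.0771 in KO hearts (SD, n = 4) and 0.564% ± 0.0531 in WT hearts (SD, n = 5).

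**Figure D1:**
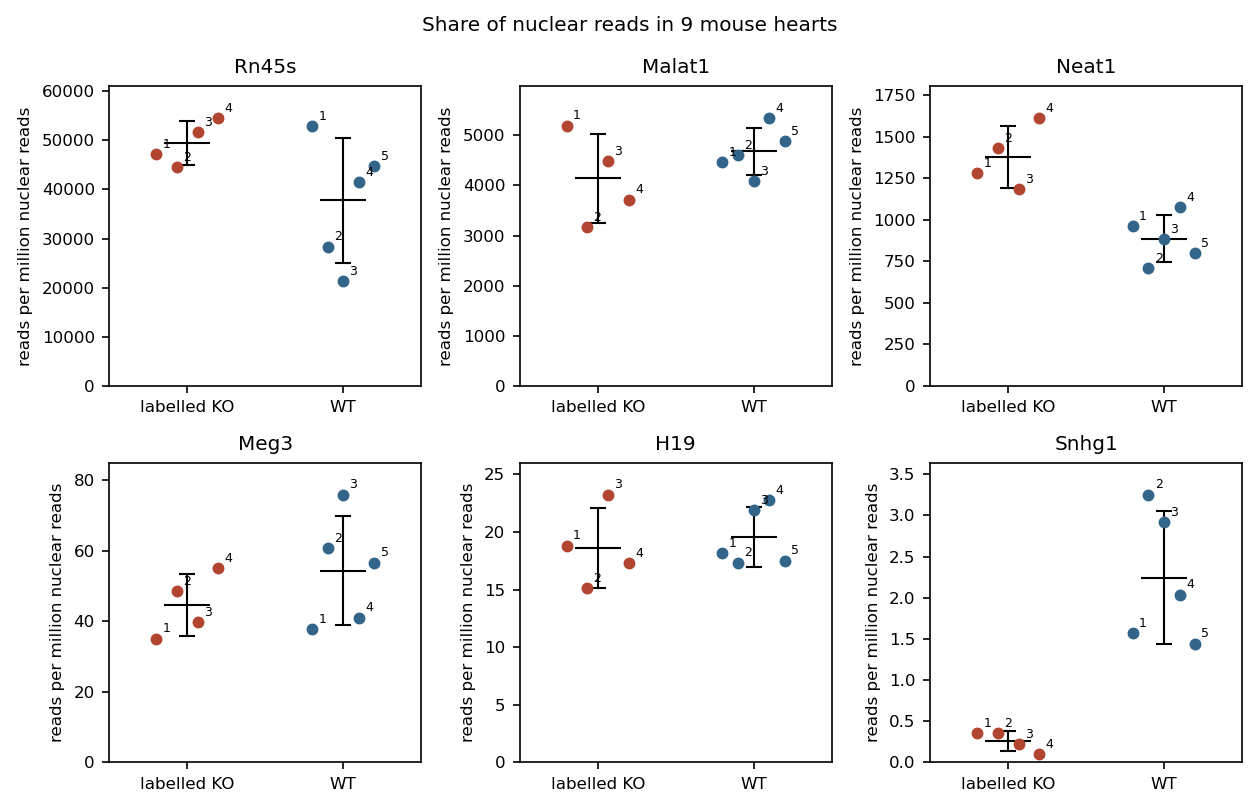
RPM, the reads per 1000000 nuclear reads, of each RNA (linear axes from 0) in labelled KO hearts (left, red) and WT hearts (right, blue); numbers are the heart's replicate number, the horizontal mark is the group mean and bars are ± 1 SD. The groups are separate for Neat1 and Snhg1 and overlap for Rn45s, Malat1, Meg3 and H19.

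Neat1 reads came to 18030, 16046, 16303 and 15871 in KO hearts 1 to 4, against 13492, 1312, 1813, 9504 and 4428 in WT hearts 1 to 5. As a share of nuclear reads this was 0.128, 0.143, 0.118 and 0.161% in KO hearts, against 0.0961, 0.0711, 0.0883, 0.108 and 0.0799% in WT hearts. Every KO heart lay above every WT heart. The nearest pair were KO heart 3, with a 95% Wilson interval of 0.117 to 0.120%, and WT heart 4, with 0.105 to 0.110%. These intervals cover counting error only. The mean share was 0.138% ± 0.0187 in KO hearts (SD, n = 4) and 0.0886% ± 0.0141 in WT hearts (SD, n = 5). Neat1 was 1.70-fold higher by edgeR (log2 fold change 0.77 ± 0.14 SE, adjusted p = 0.00048). On nuclear library sizes the log2 fold change was 0.64 ± 0.14 (edgeR adjusted p = 0.0019), with 52% of genes called, 20.5% higher and 31.6% lower. That scaling moved the median log2 fold change of all genes to -0.14. Neat1 lies at chr19:5824708-5845480 on the minus strand of GRCm38, 22035 bases from Malat1 at chr19:5795690-5802672 on the same strand.

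Malat1 had 73156, 35475, 61741 and 36592 reads in KO hearts 1 to 4, against 62615, 8511, 8403, 47231 and 27077 in WT hearts 1 to 5. Its share of nuclear reads was 0.519, 0.317, 0.448 and 0.372% in KO hearts, against 0.446, 0.461, 0.409, 0.534 and 0.489% in WT hearts. KO hearts 2 and 4 lay below all WT hearts, and KO heart 1 lay above all but WT heart 4. The mean was 0.414% ± 0.0884 in KO hearts (SD, n = 4) and 0.468% ± 0.0469 in WT hearts (SD, n = 5), and the log2 fold change was -0.05 ± 0.16 (edgeR adjusted p = 0.800). With offsets for GC content and length, described further on, it passed as higher instead (0.56 ± 0.11, edgeR adjusted p = 0.0014). Malat1 ranked 14 to 30 among nuclear rows in KO hearts and 13 to 18 in WT hearts. A transcript on the opposite strand, Gm37376, shares 453 bases with Malat1, and these libraries do not keep strand, so their reads cannot be told apart.

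The ratio of these neighbours within a heart does not depend on library size. There were 4.06, 2.21, 3.79 and 2.31 Malat1 reads per Neat1 read in KO hearts 1 to 4, against 4.64, 6.49, 4.63, 4.97 and 6.11 in WT hearts 1 to 5. All KO hearts lay below all WT hearts. KO hearts 2 and 4, the lowest, were those with the lowest Malat1 share and also those with the highest Neat1 share. The share of gene pairs whose ratios separate the groups was not computed. The mean ratio was 3.09 ± 0.968 in KO hearts (SD, n = 4) and 5.37 ± 0.871 in WT hearts (SD, n = 5). A ratio shows that the 2 RNAs differed unequally, and not which of them changed.

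**Figure D2:**
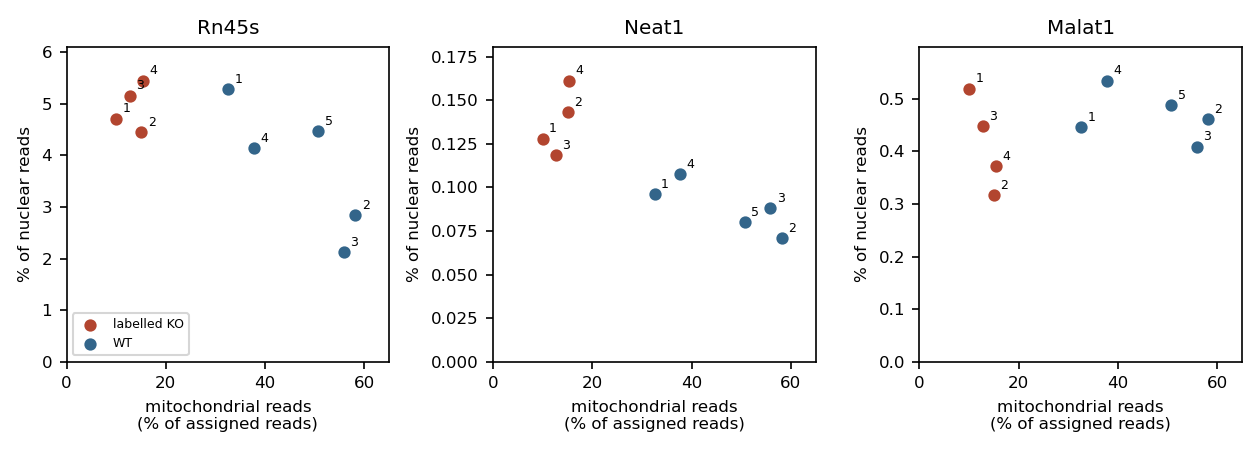
Share of nuclear reads taken by Rn45s, Neat1 and Malat1 (vertical axes, from 0) beside the mitochondrial share of assigned reads (horizontal axis) in each heart; labelled KO hearts are red, WT hearts blue, and numbers are replicate numbers. KO hearts sit at 10.04 to 15.4% mitochondrial reads and WT hearts at 32.6 to 58.2%; the lowest Rn45s shares belong to WT hearts 2 and 3.

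Paraspeckle proteins, which bind Neat1, were called in both directions. Of 16 measured, 4 were called higher and 3 lower, against 51.4% of all tested genes called, with a median log2 fold change of -0.13 against -0.01 over all tested genes. On nuclear library sizes, where 52% of genes were called, 3 were higher and 6 lower. With the GC and length offsets described further on, where 38.7% were called, 4 were higher and 2 lower. The core proteins Sfpq and Nono fell (-0.72 ± 0.14 and -0.60 ± 0.12, edgeR adjusted p = 0.00063 and 0.00096), as did Matr3, a nuclear matrix RNA-binding protein (-0.92 ± 0.16, edgeR adjusted p = 0.00031). Rbm14, which is required for paraspeckle assembly, rose (0.71 ± 0.14, edgeR adjusted p = 0.00066). Pspc1, the partner of Sfpq and Nono, averaged 8.43 CPM in KO hearts and 8.05 CPM in WT hearts and was not called (0.03 ± 0.17, edgeR adjusted p = 0.883). Under those offsets Rbm14 and Matr3 no longer passed and Pspc1 passed as higher (0.62, edgeR adjusted p = 0.015).

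Rn45s had 664414, 499216, 710704 and 536552 reads in KO hearts 1 to 4, against 742949, 52348, 43728, 366752 and 247764 in WT hearts 1 to 5. It was the most abundant or second most abundant nuclear row in every heart, although the libraries were selected for poly(A). Its share of nuclear reads was 4.72, 4.46, 5.16 and 5.45% in KO hearts, against 5.29, 2.84, 2.13, 4.15 and 4.47% in WT hearts. WT heart 1 lay above KO hearts 1 to 3, and WT hearts 2 and 3 lay far below the rest. Those 2 hearts were the shallowest and had the highest mitochondrial shares, and the part of either in the Rn45s share was not tested. The mean share was 4.95% ± 0.443 in KO hearts (SD, n = 4) and 3.78% ± 1.28 in WT hearts (SD, n = 5). The log2 fold change was 0.51 ± 0.23 (edgeR adjusted p = 0.0735), and without WT hearts 2 and 3 it was 0.21 ± 0.16 (edgeR adjusted p = 0.319). Several other settings put it past the threshold, among them DESeq2 (adjusted p = 0.0447). Ribosomal DNA is a multicopy repeat, so its reads may be split among copies, and the repeat sequence used for alignment is not given.

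Another denominator separated the groups for Rn45s. As a share of all assigned reads it was 4.24, 3.79, 4.504 and 4.61% in KO hearts, against 3.57, 1.19, 0.939, 2.58 and 2.20% in WT hearts. On that base every KO heart lay above every WT heart, while on nuclear reads the groups overlapped. Nuclear reads were 84.6 to 90.0% of assigned reads in KO hearts, against 41.8 to 67.4% in WT hearts. This base therefore raises every nuclear row in KO hearts relative to WT hearts. The share of all genes that separate on it was not computed. Per Malat1 read there were 12.3 ± 2.56 Rn45s reads in KO hearts (SD, n = 4) and 8.03 ± 2.62 in WT hearts (SD, n = 5), and the groups overlapped.

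Genes of RNA polymerase I and of ribosomal RNA processing went both ways. Of 22 measured, 4 were called higher and 6 lower, against 51.4% of all genes called, with a median of 0.13. The nucleolar protein Npm1 (-0.92 ± 0.17, edgeR adjusted p = 0.00041) fell, as did Taf1d of the promoter selectivity factor (-1.76 ± 0.36, edgeR adjusted p = 0.00088). Taf1c, of the same factor, and the polymerase subunit Polr1c rose (1.21 ± 0.26 and 0.77 ± 0.17, edgeR adjusted p = 0.0014 and 0.0015). With GC and length offsets, where 38.7% of genes were called, 2 were higher and 2 lower, and Taf1c and Polr1c no longer passed (edgeR adjusted p = 0.101 and 0.0562), while Npm1 and Taf1d stood at -0.42 and -1.09 (edgeR adjusted p = 0.0235 and 0.0179). Of 4 structural RNAs without a poly(A) tail that were measured, 1 was called lower and 0 higher, against 51.4% of all genes called. This was the minor spliceosome RNA Rnu11 (-1.16 ± 0.38, edgeR adjusted p = 0.019, and -1.82 with the offsets). With the offsets 2 were lower and 0 higher, against 38.7% of all genes called. Rpph1 then passed as lower too (-0.87, edgeR adjusted p = 0.0227), from 0.47 ± 0.34 without them (edgeR adjusted p = 0.259). Rmrp, the RNA of RNase MRP, averaged 1.97 CPM in KO hearts and 0.793 CPM in WT hearts and was not called (1.02 ± 0.51, edgeR adjusted p = 0.106).

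Meg3 had 495, 543, 548 and 542 reads in KO hearts 1 to 4, against 530, 112, 156, 363 and 314 in WT hearts 1 to 5. That is 35.1, 48.5, 39.8 and 55.1 RPM in KO hearts, against 37.8, 60.7, 76.0, 41.1 and 56.6 in WT hearts. The groups overlapped, and the highest values were those of the shallow WT hearts 2 and 3. The mean was 44.6 ± 8.90 RPM in KO hearts (SD, n = 4) and 54.4 ± 15.5 in WT hearts (SD, n = 5), with a log2 fold change of -0.12 ± 0.20 (edgeR adjusted p = 0.619). Without those 2 WT hearts it was 0.10 ± 0.20 (edgeR adjusted p = 0.692). Meg3 lies at chr12:109540996-109571729 on the plus strand of GRCm38, and the opposite-strand Gm26906 shares 1228 exonic bases with it.

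The other genes of the Dlk1-Dio3 locus were scarce. Of 7 genes, 3 were tested and none was called, with 51.4% of all genes called. Rian, a maternally expressed noncoding RNA that hosts snoRNAs, had 90, 55, 61 and 52 reads in KO hearts, against 84, 10, 15, 76 and 40 in WT hearts, and was not called (-0.29 ± 0.20, edgeR adjusted p = 0.244), though it passed as higher with GC and length offsets (0.60, edgeR adjusted p = 0.0172). Mirg, the host of a microRNA cluster, had at most 13 reads in a heart (-0.08 ± 0.54, edgeR adjusted p = 0.910). The paternally expressed Dlk1 and Rtl1, the deiodinase gene Dio3 and Begain had too few reads to be tested, with mean levels of 0.132, 0.271, 0.118 and 0.489 CPM in KO hearts and 0.472, 0.487, 0.0179 and 0.411 CPM in WT hearts. There were 8.69 ± 2.21 Meg3 reads per Rian read in KO hearts (SD, n = 4) and 8.11 ± 2.70 in WT hearts (SD, n = 5).

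H19 had 265, 169, 320 and 170 reads in KO hearts 1 to 4, against 255, 32, 45, 201 and 97 in WT hearts 1 to 5. That is 18.8, 15.1, 23.2 and 17.3 RPM in KO hearts, against 18.2, 17.3, 21.9, 22.7 and 17.5 in WT hearts. The lowest and the highest value were both in KO hearts. The mean was 18.6 ± 3.44 RPM in KO hearts (SD, n = 4) and 19.5 ± 2.59 in WT hearts (SD, n = 5), with a log2 fold change of 0.06 ± 0.16 (edgeR adjusted p = 0.774). H19 lies at chr7:142575530-142578146 on the minus strand of GRCm38. The precursor of Mir675 lies within it, as that of Mir770 lies within Meg3, and the rows of both microRNAs were at 0 reads in all 9 hearts.

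Several genes near H19 passed the test, while H19 itself did not. Igf2, the growth factor gene expressed from the paternal copy, stood at 31.2 ± 4.61 RPM in KO hearts (SD, n = 4) and 109 ± 36.3 in WT hearts (SD, n = 5). It was lower in KO hearts (-1.66 ± 0.23, edgeR adjusted p = 5.0e-05). Kcnq1ot1, the noncoding RNA that silences its imprinted domain, stood at 48.8 ± 2.53 RPM in KO hearts (SD, n = 4) and 234 ± 83.1 in WT hearts (SD, n = 5). It fell as well (-2.12 ± 0.21, edgeR adjusted p = 6.86e-06), and Kcnq1, the potassium channel gene in which it lies antisense, was higher (0.82 ± 0.14, edgeR adjusted p = 0.00031). Reads where Kcnq1 and Kcnq1ot1 overlap cannot be told apart without strand. Over both loci 8 of 13 genes were tested, with 3 higher and 3 lower, against 26.2% of all genes higher and 25.2% lower, and a median of 0.13. With GC and length offsets 2 were higher and 4 lower, against 19.1% and 19.7% of all genes, Kcnq1ot1 stood at -1.20 (edgeR adjusted p = 0.00142), and Kcnq1 no longer passed (0.30, edgeR adjusted p = 0.12).

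The other called genes there were Tssc4 (1.42 ± 0.24, edgeR adjusted p = 0.00027; 0.72 and 0.0122 with the offsets), the histone chaperone gene Nap1l4 (0.44 ± 0.11, edgeR adjusted p = 0.0032) and the tetraspanin gene Cd81 (-0.50 ± 0.11, edgeR adjusted p = 0.0019). Cdkn1c, a cell cycle inhibitor expressed from the maternal copy, averaged 9.69 CPM in KO hearts and 8.34 CPM in WT hearts and was not called (0.19 ± 0.20, edgeR adjusted p = 0.431), though with GC and length offsets it passed as lower (-0.49, edgeR adjusted p = 0.0366). Ins2, Igf2as, Phlda2, Slc22a18 and Ascl2 were not tested, none averaging above 0.517 CPM in KO hearts or 0.320 CPM in WT hearts.

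Imprinted genes elsewhere included 18 that were measured. Of these, 2 were called higher and 8 lower, against 26.2% of all genes higher and 25.2% lower, with a median of -0.46. Gnas, the stimulatory G protein subunit, and Ndn rose (0.75 ± 0.13 and 0.89 ± 0.21, edgeR adjusted p = 0.00024 and 0.0028). The noncoding RNA Airn, antisense to Igf2r, fell (-0.89 ± 0.20, edgeR adjusted p = 0.0022), as did Peg13 (-0.74 ± 0.15, edgeR adjusted p = 0.0011) and the sarcoglycan gene Sgce (-0.78 ± 0.19, edgeR adjusted p = 0.0028). With GC and length offsets 2 were called higher and 3 lower, against 38.7% of all genes called, with a median of -0.06, and Gnas and Sgce no longer passed (edgeR adjusted p = 0.247 and 0.812).

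Snhg1 had 5, 4, 3 and 1 reads in KO hearts 1 to 4, against 22, 6, 6, 18 and 8 in WT hearts 1 to 5. This was 0.355, 0.357, 0.218 and 0.102 RPM in KO hearts, against 1.57, 3.25, 2.92, 2.04 and 1.44 in WT hearts. All WT hearts lay above all KO hearts, though no heart had more than 22 reads. The nearest pair by share were KO heart 2, with a 95% Wilson interval of 0.139 to 0.919 RPM, and WT heart 5, with 0.731 to 2.85, and these intervals overlap. The mean was 0.258 ± 0.123 RPM in KO hearts (SD, n = 4) and 2.24 ± 0.809 in WT hearts (SD, n = 5). The log2 fold change was -2.72 ± 0.44 (edgeR adjusted p = 0.00017), and 0.324% of tested genes had a lower one. Snhg1 passed the filter on low values only through the WT hearts, of which 4 and none of the KO hearts reached its limit of 0.759 CPM. It is the least abundant of the 6 by reads in every heart, ranking between 10573 and 14546 among nuclear rows.

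Snord22, a box C/D snoRNA that lies at chr19:8725866-8725991 inside Snhg1 (chr19:8723487-8726326, plus strand), went the other way. Its annotated sequence of 126 bases is printed because its reads fall within the host gene. Capitals mark the CTGA near its 3' end, the letters of box D.

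Snord22-201 (chromosome 19, plus strand): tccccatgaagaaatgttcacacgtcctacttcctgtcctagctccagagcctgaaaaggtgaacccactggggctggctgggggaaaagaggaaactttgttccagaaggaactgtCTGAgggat

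Snord22 had 66, 72, 117 and 70 reads in KO hearts 1 to 4, against 18, 0, 0, 4 and 2 in WT hearts 1 to 5. It stood at 4.68, 6.43, 8.50 and 7.11 RPM in KO hearts, against 1.28, 0, 0, 0.453 and 0.361 in WT hearts. A count of 0 in WT hearts 2 and 3 allows up to 1.63 and 1.46 RPM, taking 3 reads as the most that 0 allows, and the 95% Wilson upper limits are 2.08 and 1.87 RPM. Every KO heart lay above every WT heart and above those limits. The log2 fold change was 3.39 ± 0.42 (edgeR adjusted p = 2.3e-05), and without WT heart 1, which held 18 of the WT reads, it was 4.44. Snord22 passed the filter on low values through all 4 KO hearts and 1 WT heart. It thus entered the test mainly through the hearts where it is high.

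Snord22 is annotated inside exons of 3 of the 18 Snhg1 transcripts, and exons of 5 touch it. Those 3, Snhg1-203, Snhg1-213 and Snhg1-215, are all annotated as retained introns. Reads there cannot be assigned to the host or to the snoRNA by position alone, and how the authors' counting treated them is not given in the sources used here. There were 13.2, 18, 39 and 70 Snord22 reads per Snhg1 read in KO hearts, against 0.818, 0, 0, 0.222 and 0.25 in WT hearts. Of the 8 snoRNAs listed for the Snhg1 introns, Snord22 was the one with a row in the count table.

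**Figure D3:**
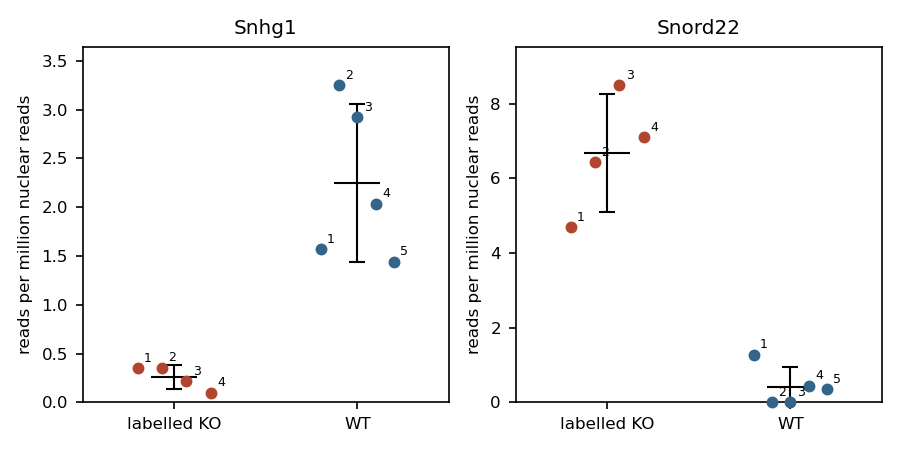
RPM, the reads per 1000000 nuclear reads (vertical axes, from 0) of the host gene Snhg1 and of the snoRNA Snord22 within it, in labelled KO hearts (left, red) and WT hearts (right, blue); marks are group means and bars ± 1 SD, cut at 0 for Snord22 in WT. Snhg1 lies between 0.102 and 0.357 in KO hearts and between 1.44 and 3.25 in WT hearts, and Snord22 between 4.68 and 8.50 in KO hearts and between 0 and 1.28 in WT hearts.

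Other snoRNA host genes were mixed. Of 16 tested of 21, with Snhg1 among them, 2 were called higher and 4 lower, with a median of -0.32. Of all genes, 26.2% were called higher and 25.2% lower. Gas5, the most abundant of them in WT hearts, averaged 4.21 ± 1.38 CPM in KO hearts (SD, n = 4) and 9.53 ± 2.04 CPM in WT hearts (SD, n = 5) and was lower (-1.13 ± 0.23, edgeR adjusted p = 0.0011). Snhg14, under the row name C230091D08Rik, averaged 3.18 CPM in KO hearts and 8.06 CPM in WT hearts and was lower too (-1.33 ± 0.20, edgeR adjusted p = 0.00011). Rian, the next most abundant, is described above. Snhg8 averaged 2.74 CPM in KO hearts and 1.10 CPM in WT hearts and was higher (1.21 ± 0.28, edgeR adjusted p = 0.0022). With GC and length offsets Gas5 and Snhg14 no longer passed (edgeR adjusted p = 0.0854 and 0.253).

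Among 31 other long noncoding RNAs, 29 had a row and 19 were tested. Of the 19, 2 were called higher and 9 lower, against 26.2% of all genes higher and 25.2% lower, with a median of -0.74. Of the 9, Kcnq1ot1, Airn, Peg13 and Gas5 are also counted in lists above. Tug1 stood at 6.94 ± 2.07 RPM in KO hearts (SD, n = 4) and 24.8 ± 2.73 in WT hearts (SD, n = 5) and was lower (-1.71 ± 0.20, edgeR adjusted p = 1.5e-05). Dleu2 and Mir143hg, host genes of microRNAs, were lower as well (-1.68 ± 0.29 and -1.17 ± 0.16, edgeR adjusted p = 0.00027 and 5.4e-05). Mhrt (row D830015G02Rik), the antisense RNA of the cardiac myosin locus, had a log2 fold change of -1.06 ± 0.19 (edgeR adjusted p = 0.00037), and without strand its reads cannot be told apart from those of the myosin gene that it overlaps. The 2 that rose were Mir22hg (1.01 ± 0.25, edgeR adjusted p = 0.0038) and Norad (row 2900097C17Rik; 0.31 ± 0.12, edgeR adjusted p = 0.0443). On nuclear library sizes Norad did not pass (0.19, edgeR adjusted p = 0.212). Under GC and length offsets the counts were 4 higher and 7 lower, against 19.1% of all genes higher and 19.7% lower. Tug1, Dleu2 and Mhrt then stood at -0.91, -0.86 and -1.65 (edgeR adjusted p = 0.00107, 0.0155 and 5.91e-05).

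**Figure D4:**
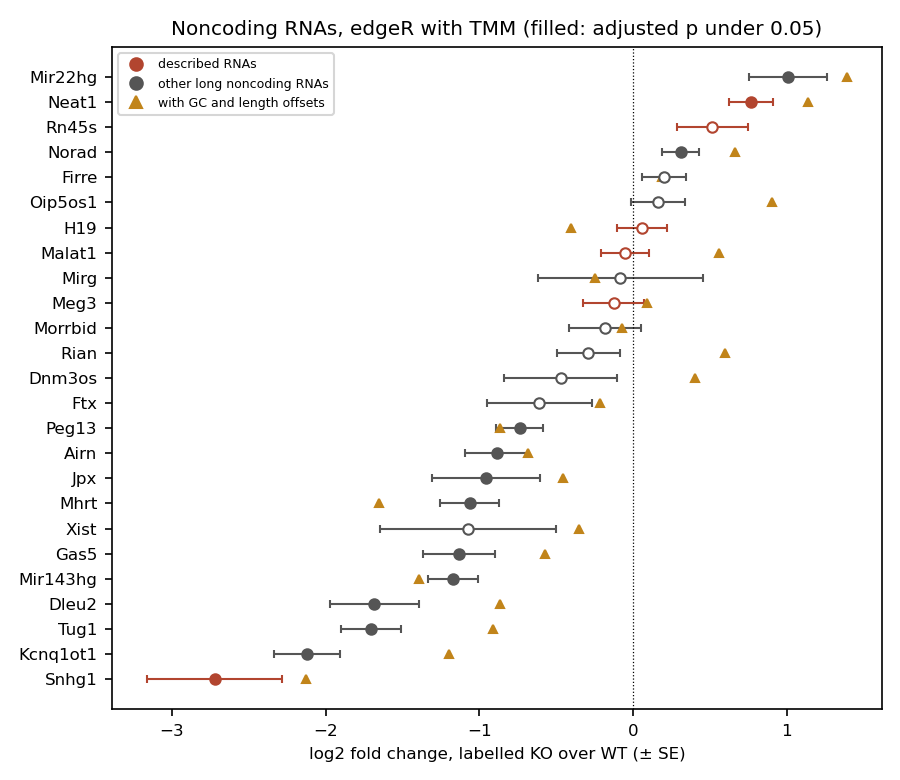
Log2 fold change of labelled KO over WT hearts for the RNAs described here (red) and other long noncoding RNAs that were tested (grey) by edgeR with TMM, with bars of ± 1 SE and filled circles for adjusted p under 0.05; triangles give the value with GC and length offsets. Neat1 stands at 0.77 and Snhg1 at -2.72, and Malat1 moves to 0.56 with the offsets.

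Fold changes over all genes followed the GC content of the transcript. The median was -0.58 among the 25% of genes poorest in GC and 0.58 among the 25% richest in it. GC content and length were taken from the longest annotated transcript of each gene. On that basis Malat1 and Snhg1, at 42.5 and 40.5% GC, belong to the poorest 25%. Neat1 and Meg3, at 47.3 and 49.2%, belong to the 25% next to them, and H19, at 55.8%, to the richest. The shorter Neat1-202 and Meg3-207 printed above hold 51.1 and 57.4% GC, which would place both genes among richer ones. Offsets from those isoforms were not run. With offsets that remove each heart's trend against GC content and length, 38.7% of 12520 genes were called, 19.1% higher and 19.7% lower. Neat1 was then higher by 1.14 ± 0.16 and Snhg1 lower at -2.13 ± 0.43 (edgeR adjusted p = 0.00013 and 0.0014). Malat1 passed the test as higher (0.56 ± 0.11, edgeR adjusted p = 0.0014), H19 stood at -0.40 ± 0.17 (edgeR adjusted p = 0.0733) and Meg3 at 0.09 ± 0.22 (edgeR adjusted p = 0.776). Snord22 stood at 2.83 ± 0.41 (edgeR adjusted p = 0.00016), though it entered the test mainly through the KO hearts, where it is high. The offsets also take out whatever part of a true difference runs with base composition or length, and Rn45s, without a reference transcript, has no value under them.

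**Figure D5:**
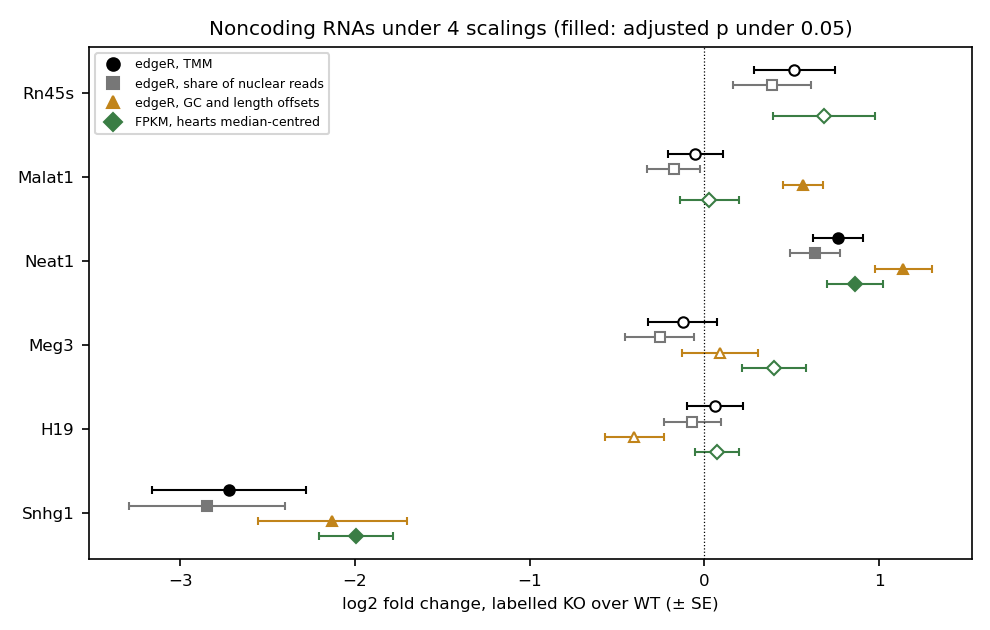
Log2 fold change of labelled KO over WT hearts (± 1 SE) of each RNA by edgeR with TMM, by edgeR on nuclear library sizes, by edgeR with GC and length offsets, and by limma on FPKM after median-centring the hearts; filled symbols have an adjusted p under 0.05. Neat1 and Snhg1 are filled under all 4 scalings and Malat1 under the offsets.

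The separately deposited FPKM values are per length, so they give the order of these RNAs in the libraries. They do not correct for capture on oligo(dT), which can differ between RNAs with and without a poly(A) tail, so the order is not one of cellular abundance. Mean levels in KO hearts were 7305 FPKM for Rn45s, 511 for Malat1, 384 for Neat1, 15.3 for Meg3, 6.86 for H19 and 0.794 for Snhg1. In WT hearts they were 3623 FPKM for Rn45s, 358 for Malat1, 157 for Neat1, 7.77 for Meg3, 4.35 for H19 and 4.06 for Snhg1. The order was the same in both groups, and 2 pairs of neighbours overlapped. Malat1 (381 to 665 FPKM) and Neat1 (336 to 435) overlapped in KO hearts, and H19 (3.19 to 5.87) and Snhg1 (2.55 to 4.85) overlapped in WT hearts.

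By FPKM the groups did not overlap for Meg3 and Rn45s, whose shares of nuclear reads overlapped. The share of all genes whose FPKM ranges separate was not computed, so this is not shown to be particular to them. Meg3 was at 12.8, 15.7, 14.3 and 18.3 FPKM in KO hearts, against 8.05, 7.22, 8.66, 6.50 and 8.41 in WT hearts, and passed limma on log2(FPKM + 1) as higher (0.89 ± 0.15, adjusted p = 0.0008). Rn45s ran from 6447 to 7775 FPKM in KO hearts and from 1615 to 6188 FPKM in WT hearts. Rn45s and H19 passed as higher too (1.18 ± 0.37 and 0.57 ± 0.19, limma adjusted p = 0.0205 and 0.0235), and Malat1 did not (0.52 ± 0.25, limma adjusted p = 0.0959). But 53.3% of genes were called on this scale, 47.2% higher and 6.09% lower, and the median difference over all genes was 0.44. With each heart centred on its own median, Meg3 stood at 0.40 ± 0.18 (limma adjusted p = 0.0897), Neat1 at 0.86 (limma adjusted p = 0.0017) and Snhg1 at -1.99 (limma adjusted p = 0.00018). Rn45s and H19 then stood at 0.68 and 0.07 (limma adjusted p = 0.0706 and 0.635). After centring, 53.9% of genes were called, 25.4% higher and 28.4% lower.

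The genes whose levels ran most like each RNA were ranked by Pearson's r of log2 CPM over the 9 hearts, among genes averaging at least 5 CPM. These correlations describe 9 libraries that share genotype, depth and base composition effects. For Neat1 they were Golga7, Mknk2 and Aen (all r = 0.98), and for Rn45s Wdr7, Pip5k1b (both 0.98) and Zxdc (0.96). For Malat1 they were Atxn1 (0.93), Aff4 and Fsd1l (both 0.88), for Meg3 Pdlim3 (0.97), Ptma (0.96) and Fam124a (0.95), and for H19 Enpep and Mecom (both 0.90). For Snhg1 they were Dnajc1, Serinc3 and Ppt1 (all 0.99). Taken as deviations from the group means, which removes the genotype, Golga7 stayed among the top 3 for Neat1 (0.95), Atxn1 for Malat1 (0.93), Enpep and Mecom for H19 (0.91 and 0.89), Pip5k1b and Wdr7 for Rn45s (0.98 and 0.97) and Dnajc1 for Snhg1 (0.97). For Meg3 none of the 3 stayed, and Srrt, Mdga1 and Cd248 took their place (all 0.98).

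By edgeR with TMM, markers of each cell type were called in both directions, apart from the atrial and erythroid lists. Of all genes, 26.2% were called higher and 25.2% lower. Of 10 cardiomyocyte markers 4 were called higher and 2, Ttn and Pln, lower. The sum of the 10 ran from 89714 to 98955 CPM in KO hearts and from 70253 to 79543 CPM in WT hearts, without overlap. Myh6 was the largest part of that sum, with a mean of 41898 CPM in KO hearts and 28586 CPM in WT hearts. How often such sums separate the groups was not computed. Fibroblast markers had 3 higher and 3 lower of 8 (591 to 1052 CPM in KO hearts, 552 to 717 CPM in WT hearts), and endothelial markers 3 higher and 2 lower of 8 (721 to 868 CPM in KO hearts, 765 to 939 CPM in WT hearts). Of 7 mural cell markers 3 were higher and 2 lower (826 to 1217 CPM in KO hearts, 841 to 1082 CPM in WT hearts), and macrophage markers 2 higher and 2 lower of 7 (192 to 245 CPM in KO hearts, 172 to 243 CPM in WT hearts). The globin rows Hba-a1 and Hbb-b1 were at 0 in all hearts, and Alas2 was not called. Of the 2 atrial markers tested, Nppa was called, and the sum of the 4 atrial rows ran from 134 to 478 CPM in KO hearts and from 23.7 to 43.4 CPM in WT hearts. With GC and length offsets, 19.1% of all genes were called higher and 19.7% lower. Cardiomyocyte markers then had 2 higher and 1 lower, fibroblast markers 1 and 1, and endothelial markers 2 and 1. Mural cell markers had 1 higher and 0 lower, and macrophage markers 0 higher and 3 lower. Myh6 passed as higher with TMM (0.55, edgeR adjusted p = 0.0052) but not with the offsets (0.12, edgeR adjusted p = 0.28). The part of cell composition in the levels of the RNAs described was not tested.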

How the data were processed

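Poly(A) RNA of 4 labelled Parkin knockout and 5 WT hearts was sequenced from non-stranded single-end libraries, per the labels' protocols. The authors deposited read counts per gene (23457 rows) and FPKM values (23369 rows). The submitters' processing notes name build mm10 and, with no order or role, HTSeq, TopHat, TopHat2 2.0.10, Bowtie2, Cufflinks 2.1, edgeR and DESeq. The annotation and the strand setting are not given there. Assigned reads ranged from 4415183 to 20827699 per heart.

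Counts were tested with edgeR 4.0.16 in R 4.3.3 by quasi-likelihood F tests with TMM factors, after its default filter by group (10 reads, 15 in total), and adjusted by Benjamini and Hochberg over all genes tested, with a threshold of 0.05. Fold changes are KO over WT, with SE from the F statistic. FPKM was tested with limma 3.58.1 on log2(FPKM + 1) where the mean reached 0.5 FPKM, which understates changes of low genes. Offsets for GC content and length, taken from the longest annotated transcript of each gene, were lowess curves (span 0.3) per heart. They had values for 99.1% of tested genes. Likeness used a prior count of 2. The fits were also run on simulated counts, with far fewer changed genes and no trend against GC content. That run therefore does not vouch for the fits to these hearts. Sequences and transcripts are from GENCODE vM21 and coordinates from RefSeq on GRCm38.p6, the assembly that mm10 names; 5 of the 6 symbols matched. Genes missing under their symbol were sought by reference synonyms.

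The RNAs and lists were chosen with earlier results of these data known. Named genes were, per list, up to 4 called genes with the smallest p or the 2 most abundant as values, all genes of the 2 imprinted loci and the 3 most abundant snoRNA host genes. Genes named beyond that rule were chosen after their values were seen: Pspc1, Rmrp, Rpph1, Ndn, Mhrt, Norad, Mir22hg, Nppa and the lowest atrial markers. The labels do not say that hearts come from separate litters or batches, so p-values measure the spread between these hearts. The targeted gene and 1 gene of the likeness ranking are not reported here. Alternatives were other scaling factors, nuclear library sizes, filters, DESeq2 1.42.0, limma-voom, the replicate number as a block, each heart left out and the threshold. GC and length offsets without the shallow WT hearts, thinned reads (1845431 nuclear reads per heart) and median-centred FPKM were added after seeing the data.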

Additional observations from a re-analysis of the deposited data

How the results depend on the processing

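Neat1 and Snhg1 kept their direction and their side of the threshold under every alternative that gave a value. Their edgeR log2 fold changes with 1 heart left out ran from 0.67 to 0.83 for Neat1 and from -2.90 to -2.52 for Snhg1. Snhg1 had no value with a mean of at least 1 CPM, without WT heart 1, 2, 3 or 4 or with thinned reads, because it did not pass the filter there. For the same reason Snord22 had no value with thinned reads. Malat1 turned to 0.56 with GC and length offsets, 0.58 with these and the replicate block, and 0.47 with them and without both shallow WT hearts; with 1 heart left out it ran from -0.16 to 0.066, turning without KO heart 2. Meg3 turned to 0.090 with the offsets, 0.088 with the offsets and block, 0.10 without both shallow WT hearts and 0.34 with that and offsets, and ran from -0.25 to -0.01 with 1 heart left out. H19 turned to -0.069 on nuclear library sizes, -0.40 with offsets, -0.44 with offsets and block and -0.39 with offsets without the shallow WT hearts; it ran from -0.073 to 0.16 with 1 heart left out, turning without KO heart 3. Rn45s crossed the threshold at 0.52 with mitochondrial rows and Rn45s kept out of the factors (edgeR adjusted p = 0.0441), 0.52 by DESeq2 (adjusted p = 0.0447), 0.53 by limma-voom (adjusted p = 0.0229), 0.67 with the replicate block (edgeR adjusted p = 0.0388) and 0.48 with thinned reads (edgeR adjusted p = 0.0410). With 1 heart left out it ran from 0.35 to 0.66, and it crossed without WT heart 1. The cause of these turns was not tested.

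The count of called genes was 5030 with the block, 3544 with block and offsets, 4166 with offsets and without the shallow WT hearts, and 5594 to 6752 with 1 heart left out. Same-numbered hearts did not deviate together over all tested genes (correlations -0.11, 0.041, -0.065 and -0.26). This cannot decide whether the numbers pair hearts, because a shared litter or day need not dominate such deviations. The block changed no other edgeR call among these RNAs. By FPKM, Meg3 no longer passed after centring (0.40), nor did H19 after centring (0.074) or with the block (0.51), nor Rn45s after centring (0.68). With 1 heart left out, H19 ran from 0.47 to 0.66 (not passing without KO heart 1 or 3 or WT heart 5) and Rn45s from 0.93 to 1.41 (not passing without KO heart 3). With all assigned reads as the denominator, the difference of mean log2 shares was 0.54 for Malat1, 1.38 for Neat1, 0.48 for Meg3, 0.66 for H19, 1.20 for Rn45s and -2.47 for Snhg1. On nuclear reads these differences were -0.20, 0.64, -0.26, -0.08, 0.46 and -3.21 in the same order. Snhg1, with 1 to 22 reads a heart, is limited by depth.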
